A study of Mus musculus with 8 samples.

Results

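Regulatory T cells (Treg) of mice labelled as lacking IRE1a (KO) were compared with Treg of wild-type (WT) mice, using 4 of the 8 libraries of the study, 2 per genotype. The members of the comparison were the genes that reached a value of 10 or more in 2 or more of these 4 libraries, 12742 of the 18438 genes in the deposited table. Values were normalized read numbers, and the effect of a gene was the difference of its mean log2(value + 1) between KO and WT, a scale that understates the change of weakly expressed genes. All mice were C57BL/6 animals at day 7 of experimental autoimmune encephalomyelitis (EAE), an immune attack on myelin, and the cells came from the spleen. Treg were sorted as CD4+ CD25hi YFP+ cells. The other 4 libraries came from CD4+ CD25- YFP- cells of both genotypes, called effector T cells (Teff), and entered the fit and the side comparisons. The YFP gate was common to WT and KO, so both genotypes carried a YFP reporter. The labels name neither the promoter behind YFP nor the agent that removed IRE1a, the part of its gene that is missing, or the age of the animals. Whether a group's 2 libraries stem from separate or pooled mice is not stated, so the p-values measure the spread between libraries, which may be technical.

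IRE1a sits in the membrane of the endoplasmic reticulum (ER), where secreted and surface proteins fold. When unfolded protein builds up it cuts an intron from Xbp1 mRNA, and the protein made from the joined mRNA switches on ER chaperones, translocation and degradation genes. It also cuts other mRNAs, a process called regulated IRE1-dependent decay (RIDD). PERK and ATF6 are the sensors of the parallel branches. Treg restrain other T cells, carry the lineage factor FOXP3 and the high-affinity IL-2 receptor, and pass from a resting, circulating state to an activated effector state.

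The sort label was checked first. Foxp3 was at 89.1 and 92.2 in the WT Treg libraries and at 111 and 117 in the KO Treg libraries, against 0 in both WT Teff libraries and 2.06 and 8.29 in KO Teff. Il2ra, the CD25 gene, through which the cells were sorted, was at 8943 and 9012 in WT Treg and 8887 and 8699 in KO Treg, against 690.3 and 588 and 537 and 436 in Teff. Foxp3, Il2ra and Ikzf2, a Treg transcription factor gene, lay far above Teff in every Treg library, and none of the 3 passed the genotype test in Treg (limma adjusted p = 0.841, 0.940 and 0.451). The 7 tested markers of CD4 T cells had a median log2 change of 0.00 and summed to 76616 to 78681 per Treg library. Library sums of the 8 libraries ran from 17504097 to 18751258, the share of the 10 strongest genes from 6.63% to 8.57%, and the 4 Treg libraries had values above 0 for 16528 to 16642 genes.

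Ern1, the gene of IRE1a (chromosome 11, 106394650 to 106487852 of GRCm38), still gave reads in KO Treg, at 326 and 359 against 377 and 399 in WT Treg. The groups did not overlap, but the difference missed the test (log2 change -0.18, SE 0.10, adjusted p = 0.479). Values cover the whole gene and cannot show a missing exon, so they are no check of the genotype label. Xbp1 mRNA was at 1602 and 1648 in WT Treg and 2000.0 and 1837 in KO Treg (adjusted p = 0.315), and gene-level values cannot show whether its intron was removed.

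The ER program downstream of IRE1a held no called gene in KO Treg. A gene was called at a limma adjusted p below 0.05, which 1.59% of all tested genes reached. Of 43 tested XBP1 target and secretory folding genes 0 were called, 31 lay below 0, and the median log2 change was -0.11, beside -0.01 over all tested genes. Unadjusted p was below 0.05 for 5 of them. Both KO libraries lay below both WT libraries in 23 of the 43 and above them in 4. Over all tested genes these shares were 26.5% and 22.9%. The lowest log2 change was that of Pdia5, a weakly detected disulfide isomerase gene, at 15.1 and 12.4 in WT and 2.18 and 2.90 in KO (log2 change -2.06, adjusted p = 0.314). Ssr2, a subunit of the translocon-associated complex, was at 1404 and 1443 in WT and 1163 and 1247 in KO (adjusted p = 0.186), and the chaperone gene Calr at 14105 and 14276 and 13222 and 12399.7 (adjusted p = 0.223). Both genes lay lower in both KO libraries without passing the test. Summed over the list, the values were 92829 and 93486 in WT and 89173 and 85789 in KO, a KO to WT ratio of 0.939.

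IRE1 partners, that is Xbp1, the splicing ligase subunits and the signalling adaptors, had 0 of 17 called (median -0.09). Hspa5, the gene of the chaperone BiP, which binds IRE1a, was at 16414 and 16519 in WT and 14901 and 14554 in KO Treg. Pdia6, a disulfide isomerase that acts on IRE1a, was at 362 and 372 in WT and 169 and 258 in KO Treg (adjusted p = 0.117). Among RIDD targets 0 of 7 tested genes were called, and all 7 lay below 0 (median -0.29). In 5 of the 7 the KO libraries were lower without overlap, where 26.5% of all tested genes were. St3gal5, a ganglioside sialyltransferase gene, was the member of smallest p, at 101 and 126 in WT and 60.8 and 68.4 in KO (adjusted p = 0.167). Bloc1s1, the RIDD target used most often as a marker, was at 571 and 592 in WT and 524 and 529 in KO (adjusted p = 0.538), and it was picked after its values were seen. The PERK and ATF4 list had 0 of 17 called (median -0.01) and the ATF6 list 0 of 10 (median -0.07). Over these 5 lists not a single member passed the test in either direction.

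Promoters were searched for motifs that XBP1 and ATF6 are known to bind. The XBP1 list was drawn from known targets, so its share of motifs follows in part from that choice and says nothing about the called genes. In the RefSeq promoter table (GRCm38.p6), 9873 tested genes had an entry, and the 250 bases before the start were searched on both strands. The core ACGTG occurred in 21.43% of these promoters and in 16.57% of all 32851 promoters of the table, against 13 of 36 promoters of the XBP1 list (36.11%) and 15 of 120 promoters of called genes (12.5%). The ER stress element, CCAAT and CCACG with 9 bases between them, occurred in 0.1722% of the tested promoters, in 6 of 36 of the XBP1 list and in 0 of 120 of the called genes. The longer motif TGACGTGG, which contains the core, was in 0.6381% of tested promoters, in 2 of 36 of the XBP1 list and in 1 of 120 of called genes. A match is a stretch of letters and not a measured site. The promoters of Creld2, an ER protein gene of the XBP1 list that was not called (480.4 and 451 in WT and 407 and 453 in KO, adjusted p = 0.652), and of Kcnf1, the named gene that rose most, are printed to show what a match looks like and a promoter without one. Creld2 was picked for its motif. The first lies at chr15:88819396-88819645 on the plus strand with the ER stress element, here on the reverse strand, in capitals, and the second at chr12:17176889-17177138 on the minus strand without any of the 3 motifs.
Creld2: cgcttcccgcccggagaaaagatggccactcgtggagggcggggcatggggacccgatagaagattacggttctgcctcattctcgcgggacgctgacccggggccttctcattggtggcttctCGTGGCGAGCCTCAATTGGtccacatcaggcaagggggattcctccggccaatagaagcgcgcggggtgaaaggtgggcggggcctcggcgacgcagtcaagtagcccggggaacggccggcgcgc
Kcnf1: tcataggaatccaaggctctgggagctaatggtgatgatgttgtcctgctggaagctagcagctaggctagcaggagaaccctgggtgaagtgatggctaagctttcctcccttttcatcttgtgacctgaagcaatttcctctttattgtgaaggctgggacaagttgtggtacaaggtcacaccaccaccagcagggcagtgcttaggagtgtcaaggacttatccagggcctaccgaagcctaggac

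Across the transcriptome 202 genes were called in KO Treg, 94 higher (0.738%) and 108 lower (0.848%), and 1931 had an unadjusted p below 0.05. The called changes were large. Their median size was 1.13 on the log2 scale against 0.16 over all tested genes, 105 exceeded 2-fold (47 higher, 58 lower) and 35 stayed within 0.5 log2 of 0. In each of the 202 genes the KO and WT Treg libraries did not overlap, a property of 49.3% of all tested genes. By annotation 160 were protein coding, 21 were T cell receptor segments and 20 were pseudogenes outside the receptor loci. The count was 43 (31 higher) without WT Treg library 1, 48 (31 higher) without WT library 2, 59 (27 higher) without KO library 1 and 64 (26 higher) without KO library 2, and 32 of the 202 calls held without each Treg library in turn. Another 11 held where they were tested, but fell below the filter without 1 or more Treg libraries. No called gene changed direction under any of the 18 alternatives that tested it. For most alternatives this was fixed beforehand, because the KO and WT Treg libraries of these genes did not overlap. Losses of single calls given below mostly concern dropped libraries. Named genes lost with only the 2 Treg groups fitted are listed at the end.

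**Figure D1:**
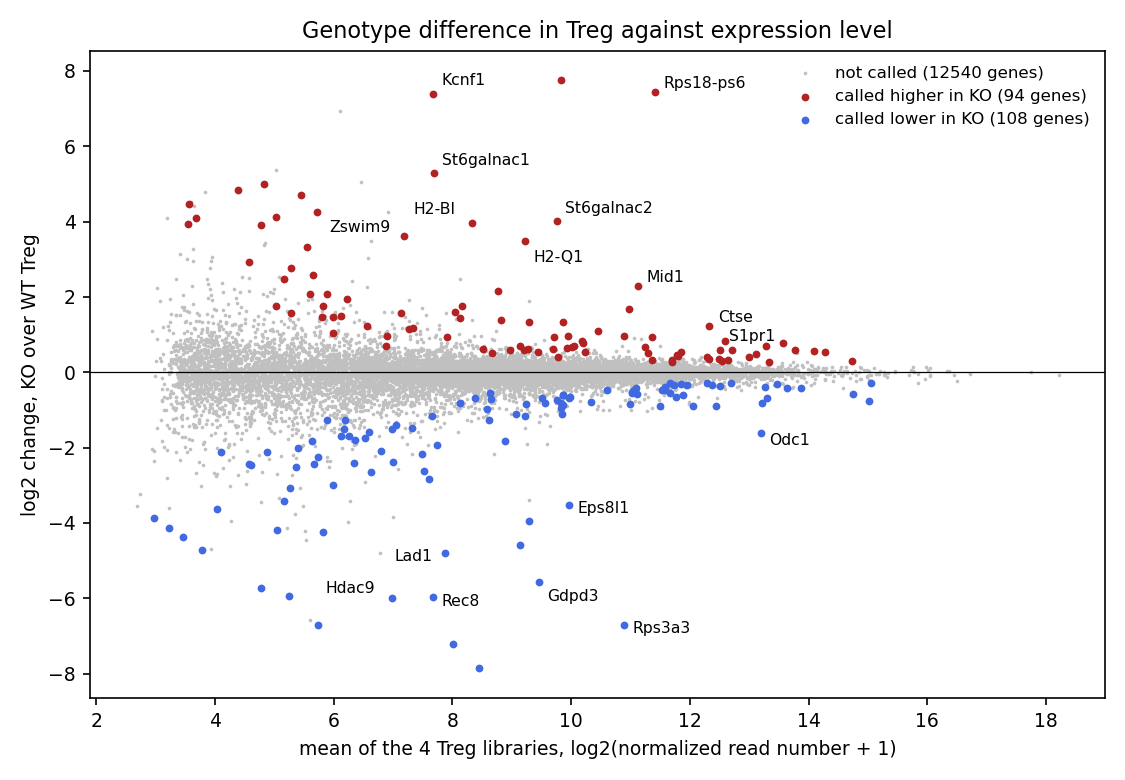
Log2 change of KO over WT Treg (vertical axis) against the mean of the 4 Treg libraries as log2(normalized read number + 1) (horizontal axis) for the 12742 tested genes. Grey points are genes not called, red points the 94 called higher and blue points the 108 called lower in KO; large changes, such as Kcnf1 and Gdpd3, stand far outside the grey cloud, while Ctse, S1pr1 and Odc1 are called at high expression.

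A potassium channel subunit gene and 2 sialyltransferase genes were among the named risers of largest change. Kcnf1, a silent subunit of voltage-gated potassium channels (chromosome 12, 17172100 to 17176888), had 0.981 and 1.96 in the WT Treg libraries and 408 and 405 in the KO Treg libraries (log2 change 7.39, SE 0.41, adjusted p = 0.000276). St6galnac1, an enzyme that adds sialic acid to the GalNAc of O-glycans (chromosome 11, 116765025 to 116775507), rose from 7.84 and 10.8 to 396 and 402 (adjusted p = 2.45e-05). Its neighbour and relative St6galnac2 (chromosome 11, 116675303 to 116694868) rose from 92.7 and 109.6 to 1649 and 1614 (adjusted p = 2.45e-05). In all 3 genes the WT Treg libraries were at or near the floor of expression, or far below KO, and the replicates of a genotype nearly coincided. Cygb, which encodes the oxygen-binding protein cytoglobin and lies next to St6galnac2, was picked after its values were seen; it rose from 2.94 and 1.96 to 49.2 and 51.1 (log2 change 3.90, adjusted p = 0.00280). These 2 sialyltransferases were the only called members of 37 tested glycosyltransferase genes, whose median was -0.01. Of 34 ion channels and transporters 2 rose, Kcnf1 and Atp1b1, a sodium pump subunit that went from 331 and 341 to 473 and 477 (adjusted p = 0.0247). The Atp1b1 call was lost once any Treg library, or WT Teff library 2, was dropped, and with only the 2 Treg groups fitted.

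More abundant risers came from other families. Mid1, a microtubule-bound ubiquitin ligase gene on chromosome X, rose from 805 and 713 to 3649.5 and 3793 (log2 change 2.29, adjusted p = 0.000102). Mtmr9, a catalytically inactive partner of phosphoinositide phosphatases, rose from 959 and 968 to 3064 and 3056 (log2 change 1.67). Ctse, which encodes the aspartic protease cathepsin E, rose from 3097 and 3074 to 7179 and 7251 (log2 change 1.23, adjusted p = 8.12e-05). Each of the 3 had values in KO more than 2-fold above WT with no overlap. Ramp1, a receptor-modifying subunit needed for the receptor of the neuropeptide CGRP, rose from 335 and 374 to 884 and 918, and Rell1, a member of the RELT receptor family, from 113 and 147 to 459 and 418. The calls of St6galnac1, St6galnac2, Mid1, Mtmr9, Ctse, Ramp1 and Rell1 held under all 18 alternatives. Those of Kcnf1 and Cygb held under the 16 and 15 alternatives that tested them. Without either KO Treg library both genes failed the filter on low values and were not tested. Smaller or less abundant members of the 15 named risers were Speg, a muscle kinase gene (21.1 and 21.4 against 114 and 75.4), Dnai4, a dynein chain gene (71.8 and 66.96 against 196 and 222), Slco1a6, an anion transporter gene (39.3 and 32.1 against 103 and 99.4), and Tanc1 (139 and 156 against 347 and 468). The calls of these last 4 were lost once any 1 Treg library was dropped (adjusted p up to 0.205, 0.143, 0.157 and 0.240), and those of Speg and Tanc1 also without either WT Teff library.

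**Figure D2:**
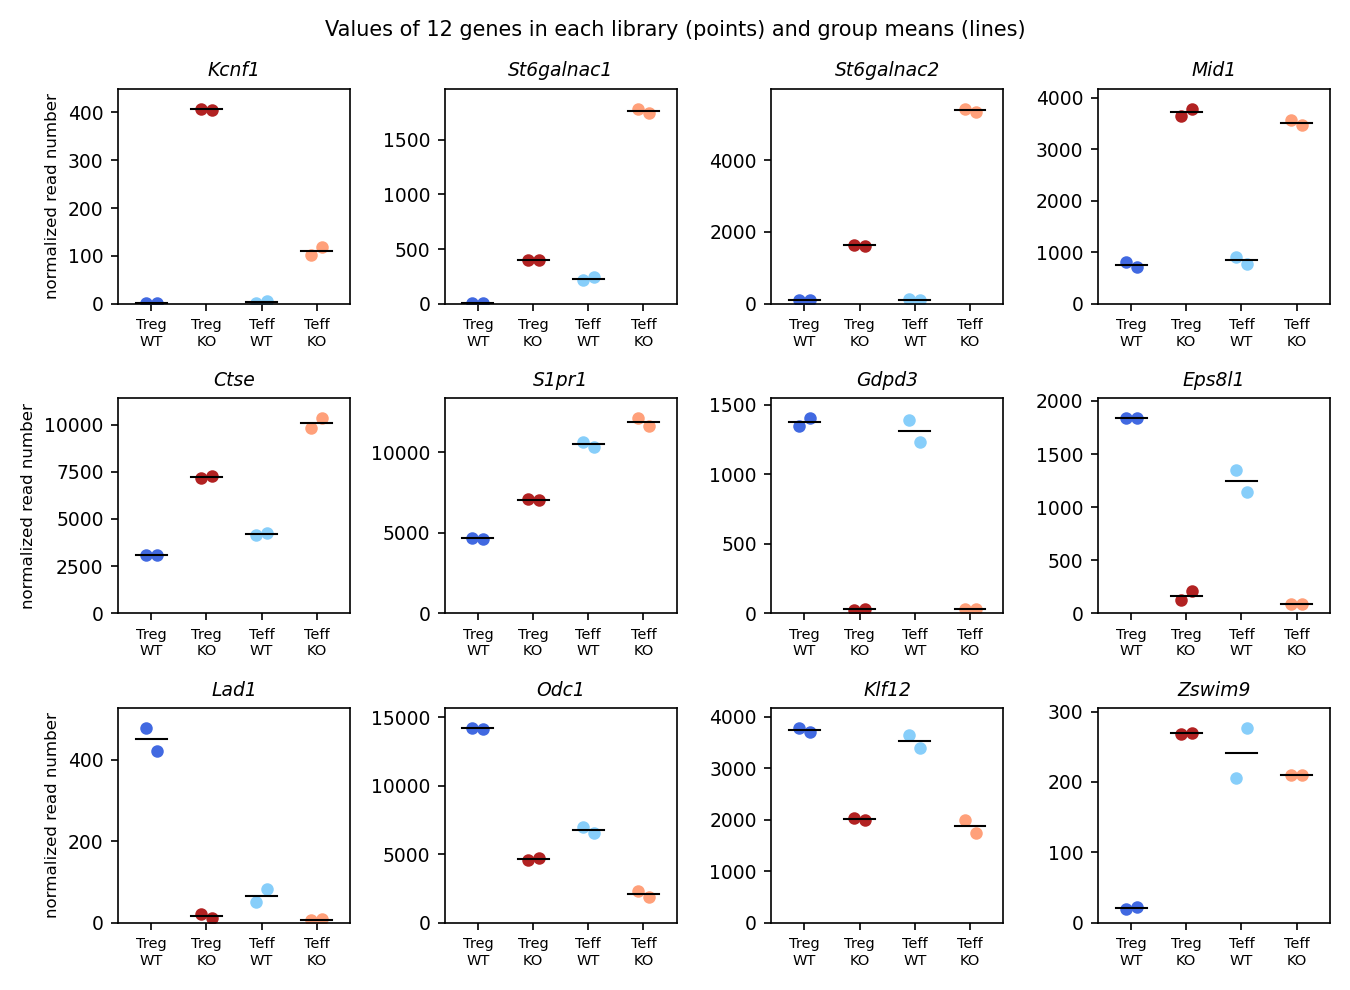
Normalized read number (vertical axis, starting at 0) of 12 genes in each of the 8 libraries (points), by cell type and genotype, with the group mean as a line. The 2 points of each Treg group lie close together beside the gap between genotypes, KO Treg stands apart from WT Treg in every panel, and Zswim9 differs between genotypes in Treg but not beyond its spread in Teff.

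The smallest p among the decreases was that of Gdpd3, which encodes a lysophospholipase D of the glycerophosphodiester phosphodiesterase family (chromosome 7, 126766334 to 126775649). It fell from 1345 and 1405 in WT Treg to 26.6 and 29.4 in KO Treg (log2 change -5.57, SE 0.14, adjusted p = 1.15e-05), and it was the single called gene among 24 tested lipid phosphodiesterase and signalling genes. Eps8l1, an actin-regulating relative of EPS8, fell from 1836 and 1839 to 122 and 205 (log2 change -3.53), and Lad1, a filament-anchoring protein gene, from 479 and 421 to 20.3 and 11.2 (log2 change -4.80). For all 3 genes the KO libraries kept a small part of the WT level, and the groups lay far apart. Odc1, the rate-limiting enzyme of polyamine synthesis, combined a high level with a strong drop, from 14242 and 14112 to 4595 and 4711 (log2 change -1.61, SE 0.10, adjusted p = 0.000504). Klf12, a repressive zinc finger factor, fell from 3795 and 3714 to 2041 and 1996 (log2 change -0.90), and Fmo1, a flavin monooxygenase, from 819.9 and 832 to 331 and 404 (log2 change -1.17); Klf12 and Fmo1 were picked after their values were seen. The calls of Gdpd3, Eps8l1, Lad1, Odc1, Klf12 and Fmo1 held under all 18 alternatives.

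Other large decreases rested on fewer reads or were less stable. Hdac9, a class IIa histone deacetylase, fell from 200.4 and 292 to 0.505 and 8.80, a larger change than that of Gdpd3 (log2 change -5.98), and Rec8, a meiotic cohesin subunit, from 408 and 392 to 1.80 and 13.4. Their KO libraries were close to 0 but differed from each other, and the calls were lost without KO Treg library 1 for Hdac9 (adjusted p up to 0.0744; not tested without either WT library) and without either WT Treg library for Rec8 (up to 0.105). Rnf144a, a ubiquitin ligase, fell from 358 and 313 to 69.4 and 107 (lost without either WT Treg library, up to 0.0926). Trim34b, a tripartite motif gene, fell from 124 and 98.9 to 15.5 and 11.2 (lost without WT Treg library 1, 0.0742), and 56.8% of its 50-base stretches also occur in other genes. Dmwd (109 and 124 against 32.3 and 38.1) and Ttc8, a cilium gene (119 and 132 against 33.2 and 37.7), lost their calls once any 1 Treg library was dropped (up to 0.210 and 0.270), Ttc8 also without either WT Teff library or KO Teff library 2. Capn11, a calpain protease gene, was at 47.7 and 57.7 in WT Treg and listed at 0 in both KO Treg libraries (adjusted p = 0.00150). Gmpr, Prps1l1 and Gm7142 were likewise called and listed at 0 in both KO Treg libraries; these 3 calls were lost without either KO Treg library or either WT Teff library, and that of Prps1l1 also without KO Teff library 1 or 2 (adjusted p up to 0.161, 0.196 and 0.169).

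Genes of resting, recirculating T cells were higher in KO Treg. Of 23 tested genes of resting and central Treg 6 rose and 0 fell, all 23 had a log2 change above 0, and in 22 the libraries of the 2 genotypes did not overlap, where 22.9% of all tested genes were higher without overlap. The median was 0.26, beside -0.01 over all tested genes. S1pr1, the sphingosine phosphate receptor through which T cells leave lymphoid organs, had the smallest p of the list, at 4679.9 and 4614 in WT and 7076 and 7013 in KO (log2 change 0.60). Txnip, an inhibitor of glucose uptake, went from 7419 and 7799 to 11836 and 12824 (log2 change 0.70), and Ly6c1, a surface protein of resting memory-like cells, from 420.0 and 434 to 679.7 and 707 (log2 change 0.70). The chromatin organizer Satb1 was at 3078 and 2979.6 in WT and 3981 and 4178 in KO, and the IL-7 receptor gene Il7r at 7804 and 7066 and 10134 and 10514. These 5 were higher in both KO libraries than in both WT libraries. Of them only the call of S1pr1 held under all 18 alternatives. Those of Ly6c1, Satb1 and Il7r were lost once any 1 Treg library was dropped, and that of Txnip without either WT Treg library or KO Treg library 2 (adjusted p up to 0.101, 0.143, 0.262 and 0.0770). Il7r likewise failed the test with 1 WT Teff library, whichever it was, dropped. Ccr7, the lymph node homing receptor, was at the other end of the list (4673 and 4733 in WT and 4775 and 4918 in KO, adjusted p = 0.820).

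Movement genes went both ways. Among 28 egress, adhesion and chemokine receptor genes 2 rose, S1pr1 among them, and 1 fell, with a median of 0.04. The faller was Icam1, the ligand of the integrin LFA-1, from 3886 and 3845 to 2601 and 2646 (log2 change -0.56, adjusted p = 0.00516); its call was lost once any 1 Treg library was dropped (up to 0.0742). Of 27 cytokine receptor genes 1 rose, Il17ra, from 2943 and 3040.2 to 3661 and 3610.4 (adjusted p = 0.0490), a call that was lost without any single one of the 8 libraries (up to 0.251).

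Of the Treg identity genes 4.17% and of the effector Treg genes 3.45% were called, 1 gene in each list, beside 1.59% of all tested genes. Of 24 tested Treg identity genes 1 rose and 0 fell, and 20 of the 24 lay below 0 (median -0.12). Without overlap 17 of the 24 were lower and 3 higher, where 26.5% and 22.9% of all tested genes were. Unadjusted p was below 0.05 for 8 of the 24, beside 1931 of all 12742 tested genes. The riser was Gpr83, an orphan receptor of resting Treg, at 1289 and 1284 in WT and 2474 and 2499 in KO, the same direction in 2 well separated groups. Its log2 change was 0.95 in Treg and 0.88 in Teff. Tnfrsf18, which encodes GITR, was at 4930.4 and 5097 and 3988 and 4199 (adjusted p = 0.119), and Tnfrsf9, which encodes 4-1BB, at 4608 and 4815 and 3847 and 3851 (adjusted p = 0.119). Both were lower in both KO libraries without passing. Of 29 effector Treg genes 1 fell (median -0.06): Irf4, a factor induced by T cell receptor signals, from 2515 and 2474 to 1737 and 1639. Its call was lost once any 1 Treg or KO Teff library was dropped (up to 0.219). Batf, the partner of IRF4, was at 2109 and 2184 and 1678 and 1773 (adjusted p = 0.0727).

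Genes induced by T cell receptor signals had 0 of 26 called, 11 with an unadjusted p below 0.05 and a median of -0.17. With only the 4 Treg libraries fitted, 5 of the 26 were called lower, where 1.19% of all tested genes were. Nfkbid and Nfkbia, 2 inhibitors of NF-kappaB, were at 4070.1 and 3811 against 3009 and 3122 and 27581 and 28386 against 20641 and 21157 (adjusted p = 0.0578 and 0.0743). Relb, a subunit of the same factor, fell from 2496 and 2499 to 1803 and 1964 and was the only called gene of 47 T cell transcription regulators, a call lost without any single one of the 8 libraries (up to 0.234). Of 15 cytokine genes 0 were called (median -0.20). Ltb, which encodes lymphotoxin beta, was at 10049.5 and 9716 in WT and 7312 and 7795 in KO (adjusted p = 0.0600). The 24 costimulatory and inhibitory receptors also had 0 called, with a median of 0.04.

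Immediate early and heat shock genes can record the handling of cells in a sort. Of 14 such genes 1 rose and 1 fell. Hspa1b, an inducible HSP70 gene, fell from 732 and 732 to 340.3 and 341 (log2 change -1.10); 62.3% of its stretches are shared, most of them with its twin Hspa1a, which was at 276 and 259.9 and 121 and 165 (adjusted p = 0.0994). Btg2, an antiproliferative gene, rose from 4538 and 4403 to 5769 and 5708 (lost with any 1 Treg or WT Teff library dropped, up to 0.269). The 21 other heat shock and cytosolic chaperone genes had 0 called.

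Of 41 proliferation genes 2 fell and 0 rose, 36 lay below 0 and 5 above, up to 0.89 for Cenpf (not called), and 30 were lower without overlap, where 26.5% of all tested genes were; the median was -0.29. Mki67, the Ki-67 gene, was at 2568 and 2338 in WT and 1706 and 1677 in KO (log2 change -0.53), and Rrm2, which makes deoxynucleotides for DNA synthesis, at 439 and 383 and 258 and 253 (log2 change -0.68). Tk1, a thymidine kinase, was at 609 and 698 and 375 and 394 (adjusted p = 0.0889). Outside the list, Orc1, a subunit of the origin recognition complex, fell from 235 and 192 to 41.4 and 38.5, and Rad54l, a recombination motor, from 183 and 155 to 22.4 and 30.7. Chek1, a replication checkpoint kinase (283 and 269 against 116 and 129.7), and Ube2t, a ubiquitin enzyme of crosslink repair (90.5 and 74.2 against 36.2 and 31.02), were called as well and were picked after their values were seen. All 6 called genes of this paragraph were lower in both KO libraries, and each of the 6 calls was lost once any 1 Treg library was dropped (adjusted p up to 0.222, 0.241, 0.151, 0.233, 0.243 and 0.226). Calls failed too without either WT Teff library for Mki67, Rrm2, Rad54l and Ube2t, and without KO Teff library 1 or 2 for Rrm2, Chek1 and Ube2t.

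The class I histocompatibility region split into genes that rose and genes that fell. Of 23 tested class I and antigen presentation genes 5 rose and 5 fell, and in 22 of the 23 the libraries did not overlap. Over all tested genes 1.59% were called and 49.3% did not overlap. H2-D1, a classical class I gene, rose from 13942 and 14215 to 21184 and 20799 (log2 change 0.58), while H2-K1, the other classical gene, fell from 14173 and 14914 to 11042 and 10716 (log2 change -0.42). The non-classical genes H2-Bl (37.2 and 37.3 to 568 and 633), H2-Q1 (81.2 and 117 to 1057 and 1127), H2-Q2 (129 and 127 to 358 and 431) and H2-T3 (8.84 and 6.40 to 87.8 and 79.9) rose by 3.97, 3.47, 1.61 and 3.31 on the log2 scale. H2-Q7 fell from 37250.0 and 37718 to 30810.1 and 30766, H2-T23, which encodes Qa-1, from 5798 and 6142 to 4675 and 4722, and H2-T22 from 4007 and 4191 to 3237 and 3326. Tap1, a peptide transporter subunit, fell from 7350.0 and 7155 to 6044 and 5864. The genes that rose most were nearly silent in WT, and those that fell were abundant in all 4 libraries. Class I genes share sequence: the share of 50-base stretches also found elsewhere was 12.8% for H2-D1, 9.63% for H2-K1, 9.55% for H2-Bl, 26.5% for H2-Q7 and 53.5% for H2-T22, so their values are uncertain. The calls of H2-D1, H2-Bl and H2-Q1 held under all 18 alternatives, and that of H2-T3 under the 16 that tested it, which leave out the fits without either KO Treg library. H2-Q2 lost its call without either WT Treg library or KO Treg library 2 (up to 0.0839), and H2-K1, H2-Q7, H2-T23, H2-T22 and Tap1 once any 1 Treg library was dropped (up to 0.164, 0.241, 0.221, 0.236 and 0.230). The fall of H2-Q7 also missed the threshold with 3 other scalings, and that of Tap1 with library totals. H2-T23, H2-T22 and Tap1 also lost their calls without either WT Teff library, and H2-T22 without KO Teff library 2.

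Interferon-induced genes had 1 of 43 called, Tap1, with 36 of the 43 below 0 and a median of -0.19. Without overlap 24 of the 43 were lower and 5 higher, where 26.5% and 22.9% of all tested genes were. The exonuclease gene Isg20 was at 793 and 784 in WT and 522 and 513 in KO (adjusted p = 0.0556). In contrast to this list, 3 neighbouring members of the Ifi200 family of DNA sensors on chromosome 1, picked after their values were seen, were called higher: Ifi206 (582 and 566 to 1058 and 1134), Ifi208 (799 and 804 to 1215 and 1321) and Ifi213 (408 and 389 to 577 and 621). The other 8 of the 11 tested members were not called, 5 of them above 0, with Ifi203 at a log2 change of 0.23 and Ifi204 at -0.01 (adjusted p = 0.319 and 0.984). Ifi202b and Ifi207, also not called, went the other way, at -1.19 and -0.66 (adjusted p = 0.124 and 0.122). The 3 calls were lost without either WT Treg library or KO Treg library 2, and those of Ifi206 and Ifi213 also without KO Treg library 1. Ifi206 lost its call as well without either WT Teff library and Ifi213 without KO Teff library 1 or 2 (adjusted p up to 0.212, 0.0742 and 0.221).

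Among metabolic and survival lists the called share was 5% for glycolysis and 8% for apoptosis genes, beside 1.59% of all tested genes. Of 20 glycolysis genes 1 fell, the hypoxia factor gene Hif1a, from 11214 and 11215 to 8799 and 8246 (log2 change -0.40), a call lost once any 1 Treg library was dropped (up to 0.177). Oxidative phosphorylation had 0 of 34 called (median -0.12) and cholesterol and fatty acid synthesis 0 of 26 (median -0.08). Lower without overlap were 12 of the 20 glycolysis, 25 of the 34 oxidative phosphorylation and 10 of the 26 synthesis genes, beside 26.5% of all tested genes. Of 25 apoptosis genes 2 rose. Bcl2l11, the gene of the pro-apoptotic protein BIM, went from 660.4 and 678 to 1398 and 1205 (log2 change 0.95; lost without either WT Treg library, up to 0.0742). Casp4, an inflammatory caspase, went from 726 and 787 to 1201 and 1163 (log2 change 0.65; lost with any 1 Treg or KO Teff library dropped, up to 0.227). The GIMAP and Schlafen families of lymphocyte GTPases and quiescence genes had 0 of 14 called.

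Lysosomal protease genes split, and markers of macrophages lay lower in KO Treg beside those that fell. Of 23 tested lysosome and cathepsin genes 1 rose, Ctse, and 3 fell: Ctsb from 16764 and 17490.5 to 13108 and 12400.4, Ctsd from 6455 and 6647 to 5166 and 4956, and Ctss from 4452 and 4447 to 3526 and 3445 (log2 change -0.43, -0.37 and -0.35). These 3 calls were lost once any 1 Treg library was dropped (up to 0.143, 0.153 and 0.220), that of Ctss also without either WT Teff library. All 13 tested macrophage and monocyte markers of the 15 listed were lower in KO Treg with no overlap, where 26.5% of all tested genes were. They stood at 0.437 to 0.635 of the WT mean, and none was listed at 0 in all Treg libraries. Their summed value was 35271 and 37355 in WT Treg and 22323 and 20309 in KO Treg, against 811 to 3131 in the Teff libraries. Spic, the factor of red pulp macrophages, was at 513 and 504 in WT Treg and 200.3 and 243 in KO Treg, and the complement gene C1qa at 2403 and 2422 and 1451 and 1427. In the fit over all 8 libraries 0 of the 13 markers were called and 2 had an unadjusted p below 0.05. With only the 4 Treg libraries fitted, 230 genes were called (1.81%), 152 of them lower (1.19%), and 9 of the 13 markers were among the lower. The 3 called cathepsins stood at 0.745 (Ctsb), 0.772 (Ctsd) and 0.783 (Ctss) of WT. Ctsh, another cathepsin, and Cd68, a lysosomal protein of macrophages, stood within the range of the markers, at 0.515 and 0.619, and were not called (adjusted p = 0.0704 and 0.0960); both were picked after their values were seen. Myeloid surface and class II genes among the called decreases, picked after their values were seen, were Lilrb4a (7468 and 7048 to 3788 and 3988), Lilr4b (4753 and 4437 to 3024 and 2979.7), Cd300ld (59.8 and 72.6 to 15.7 and 15.7), Sirpb1a (60.4 and 33.4 to 9.20 and 9.92), H2-Ab1 (74.8 and 98.2 to 13.4 and 22.3) and H2-DMb1 (132 and 149 to 33.8 and 49.8), the last named by rule. Their calls were lost without either KO Treg library (adjusted p up to 0.173, 0.132, 0.226, 0.205, 0.253 and 0.254) and, apart from Sirpb1a, which was not tested there, without either WT Treg library. Calls of Cd300ld, Sirpb1a, H2-Ab1 and H2-DMb1 also depended on single Teff libraries. The part of the macrophage signal in these decreases was not tested, and fewer cells of a type cannot be told apart from less RNA per cell in bulk libraries.

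**Figure D3:**
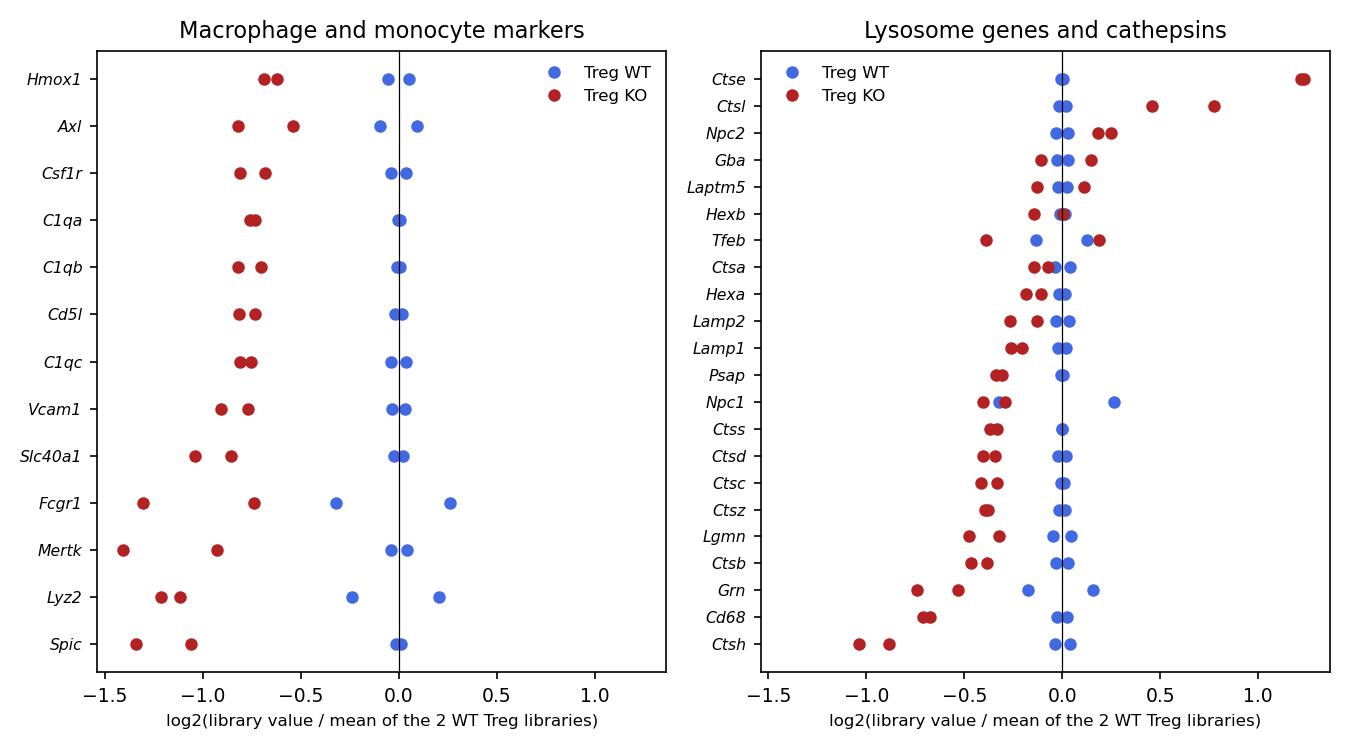
Log2 ratio of each Treg library to the mean of the 2 WT Treg libraries (horizontal axis) for macrophage and monocyte markers (left) and for lysosome genes and cathepsins (right) with a group mean of at least 50. Blue points are WT and red points KO libraries; all 13 markers lie left of 0 in both KO libraries, Ctsh and Cd68 lie as far left as some markers, and Ctse lies right of 0.

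Markers of other cells were low or uneven. B cell markers summed to 12434 and 12330 in WT Treg and 18092 and 18172 in KO Treg, and Ighm made up most of that sum. Ighm, the constant region gene of IgM, rose from 11095 and 11081 to 16653 and 16982 (adjusted p = 0.00404; lost without either WT Treg library, up to 0.0612) and was the only called member of 13. The defining markers Ms4a1 and Cd79a lay at 22.1 and 22.9 and at 39.2 and 41.2 in WT Treg and at 30.7 and 25.8 and at 37.4 and 54.05 in KO Treg and were not called. Pax5, the B cell factor, was at 5.74 and 2.87 and 178 and 162, a large gap between groups that missed the test (adjusted p = 0.0870). Of 4 tested NK cell markers 1 rose, the pore-forming protein gene Prf1, from 73.8 and 86.5 to 170.1 and 144, a call lost once any 1 Treg or WT Teff library was dropped (up to 0.163). Neutrophil (6), dendritic cell (6), plasma cell (5), red cell and platelet (6) and CD8 T cell (2) markers had 0 called. Neutrophil markers summed to 244 and 247 in WT and 136 and 131 in KO.

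The gene-level values of near-identical ribosomal protein copies moved in opposite directions. Rps3a1, the intact gene on chromosome 3, rose from 16207 and 16140.0 to 24049 and 22768, while its copies Rps3a2 on chromosome 14 fell from 12096 and 11979 to 6315 and 7493 and Rps3a3 on chromosome 13 from 3884 and 3655 to 38.4 and 32.4. The sum of the 3 was 31980.5 ± 292 in WT Treg and 30347.8 ± 76.6 in KO Treg (SD, n = 2), a log2 change of -0.08. In the second family Rps18 on chromosome 17 fell from 12305 and 12509 to 7973 and 7590.1, and its copies Rps18-ps6 and Rps18-ps3 rose from 29.4 and 31.4 to 5251 and 5614 and from 7.84 and 6.87 to 1703 and 1902. Their sum was 12444.5 ± 145 in WT and 15016.6 ± 127 in KO (SD, n = 2; log2 change 0.27). The single genes thus differed far more than the sums in Treg. In Teff the Rps18 sum had a log2 change of 0.54. Both sums leave out further genes of shared sequence. Gm26619 holds 96.48% of the 50-base stretches of Rps18-ps6, and Gm13408 holds 42.89% of those of Rps3a1. Rps3a2, Rps18 and the 2 Rps18 copies were picked after their values were seen. The calls of Rps3a1, Rps3a2 and Rps18 were lost once any 1 Treg library was dropped (adjusted p up to 0.103, 0.175 and 0.0874), and that of Rps18-ps3 without either WT Treg library (up to 0.0815). The calls of Rps3a3 and Rps18-ps6 held under all 18 alternatives.

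The sequences show how few bases separate these genes for a 50-base read. Over the aligned coding sequence Rps3a2 matched Rps3a1 at 99.49% and Rps3a3 at 98.99% of bases, and Rps18-ps3 and Rps18-ps6 matched Rps18 at 99.34% and 99.12%. The first set below gives coding positions 201 to 260 of Rps3a1 and the matching bases of its copies. The second gives positions 312 to 371 of Rps18 and its copies. Positions count from 1 at the first base of the start codon, the bases come from the GENCODE M21 transcripts of GRCm38, and capitals mark bases that differ from the intact gene or, in the intact gene, from a copy.
Rps3a1: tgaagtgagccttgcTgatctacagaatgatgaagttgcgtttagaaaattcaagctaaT
Rps3a2: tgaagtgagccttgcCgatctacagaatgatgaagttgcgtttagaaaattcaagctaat
Rps3a3: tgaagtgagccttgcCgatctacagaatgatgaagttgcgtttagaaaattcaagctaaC
Rps18: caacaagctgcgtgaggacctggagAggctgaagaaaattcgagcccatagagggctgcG
Rps18-ps3: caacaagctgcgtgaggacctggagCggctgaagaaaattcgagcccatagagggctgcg
Rps18-ps6: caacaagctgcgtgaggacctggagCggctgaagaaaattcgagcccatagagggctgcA

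**Figure D4:**
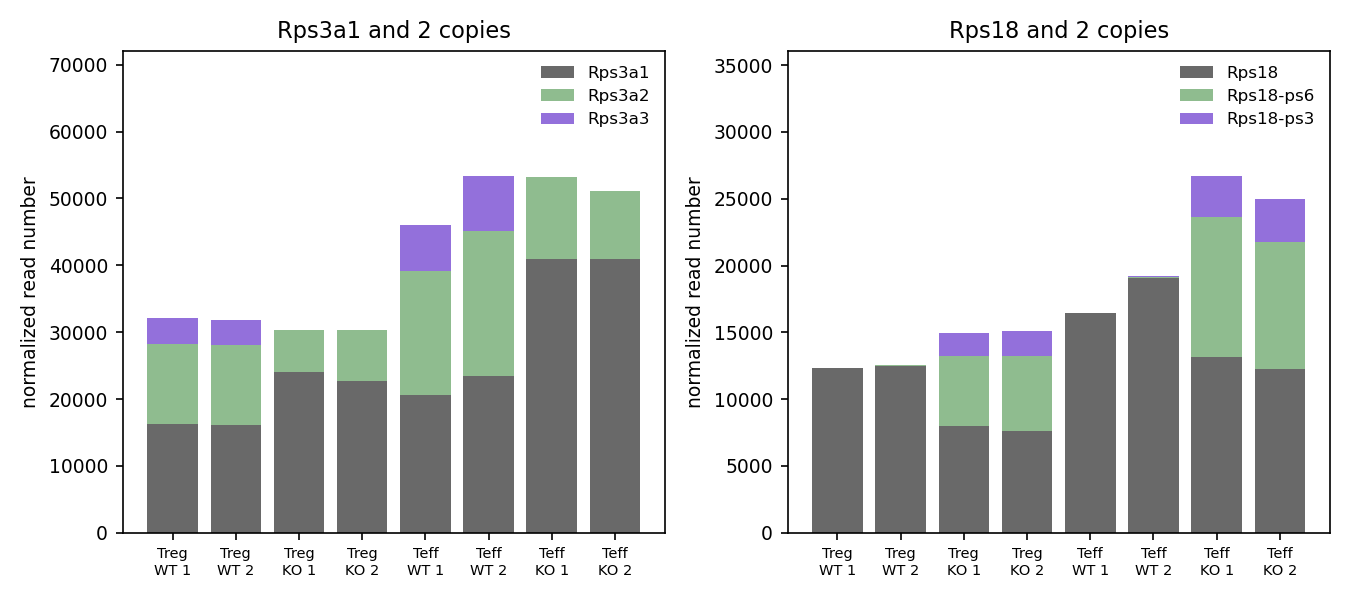
Normalized read number (vertical axis) of Rps3a1 with 2 copies (left) and Rps18 with 2 copies (right), stacked for each of the 8 libraries (horizontal axis). Rps3a3 is visible in the 4 WT libraries and the Rps18 copies in the 4 KO libraries, in Treg and Teff alike, while the Treg stack heights differ less between genotypes than the single genes.

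Shared sequence was more common among the called genes. Of the 682 tested genes with at least 50% of their 50-base stretches also present in another gene, 25 were called (3.67%), against 177 of 12060 others (1.47%). Noct, a circadian deadenylase-family gene (41742 and 41395 to 25014 and 23969), and Slc38a6, an amino acid transporter gene (33224 and 32937 to 22778 and 21708), were among the 10 most abundant called genes, and both fell. The 2 genes share 2075 stretches with each other, 19.65% of those of Noct and 26.33% of those of Slc38a6, although they lie on chromosomes 3 and 12, so their values may hold the same reads. Nopchap1 on chromosome 10, picked because it shares 8.29% of the stretches of Noct, also fell, from 12638 and 12473 to 10266 and 9886 (log2 change -0.32). The call of Noct was lost without WT Treg library 1 (0.0543) and those of Slc38a6 and Nopchap1 with any 1 Treg library dropped (up to 0.0886 and 0.210). Gvin1, an interferon-inducible large GTPase (9377 and 8459 to 14949 and 15606), rose with 99.2% of its stretches shared, and Arhgap45 (24553 and 24378 to 30212 and 30156) rose with none shared, a call lost with any 1 Treg library dropped (up to 0.212).

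T cell receptor alpha segments made up 18 of the called genes, 7 higher and 11 lower, out of 130 tested, and 10 of the 18 shared at least 50% of their stretches. Trav7n-6 was at 107 and 101 in WT Treg and listed at 0 in both KO Treg libraries and in all 4 Teff libraries. Its near copy Trav7d-6 was listed at 0 in both WT Treg libraries, at 17.7 and 25.5 in KO Treg, and at 80.4 and 83.7 in WT Teff and 26.8 and 28.8 in KO Teff. The 2 segments share all but 1 of their 50-base stretches, so which of them a read came from cannot be told from these values. Trav13-3, at 15.7 and 11.8 in WT Treg, was also listed at 0 in both KO Treg libraries (lost without either KO Treg library or either WT Teff library, up to 0.155).

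Called genes were unevenly spread over the genome. Chromosome 14 held 32 called of 608 tested genes (5.26%), chromosome 12 held 22 of 453 (4.86%) and chromosome 17 held 23 of 511 (4.50%), beside 1.59% overall. T cell receptor alpha segments were 18 of the 32 on chromosome 14, and without receptor segments 14 of 477 tested genes there were called (2.94%). Windows of 5 Mb with at least 3 called genes numbered 13 and held 75 of the 202 calls (37.1%), 21 of them in the receptor window from 50 to 55 Mb of chromosome 14, where 3 were not receptor segments. In them 9.58% of tested genes were called, against 1.06% outside, a contrast that follows in part from how the windows were chosen. Between 14 and 42 Mb of chromosome 12, a stretch picked after the values were seen, 15 of 78 tested genes were called (19.2%), 2 higher and 13 lower, among them Kcnf1, Odc1, Rnf144a, Hdac9 and Rrm2. Among the 13 windows, on chromosome 17 the window from 35 to 40 Mb held 12 called of 82, among them 8 of the 10 called class I and antigen presentation genes, the window from 30 to 35 Mb held 6 called of 87, all lower, H2-K1 and Tap1 among them, and on chromosome 1 the window from 170 to 175 Mb held 4 called of 69, all higher, the 3 Ifi200 genes and Cfap45.

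**Figure D5:**
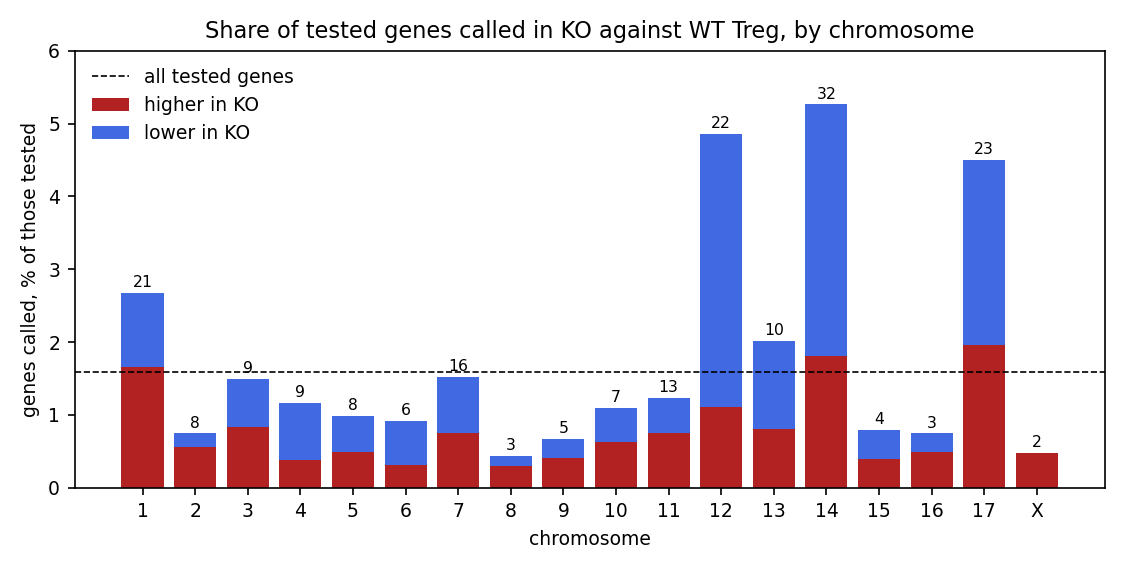
Genes called in KO against WT Treg as a percentage of those tested (vertical axis), by chromosome (horizontal axis; chromosomes with fewer than 300 tested genes are not drawn), split into higher (red) and lower (blue) in KO, with the number called above each bar. The dashed line is the 1.59% of all tested genes; chromosomes 12, 14 and 17 stand at 4.50% to 5.26%.

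The surroundings of Ern1 on chromosome 11 were examined because an engineered allele brings its neighbours with it. Within 5 Mb of Ern1 on either side 0 of 96 tested genes were called, and none of 98 from 10 to 5 Mb below it. Over all tested genes 1.59% were called, so 0 calls in stretches of this size do not set them apart. From 5 to 10 Mb above Ern1 2 of 65 were called, and from 10 to 20 Mb above 4 of 99: Cygb, St6galnac2, St6galnac1 and Lgals3bp, a secreted galectin ligand (3776 and 3832 to 3033 and 2965; its call was lost once any 1 Treg library was dropped, up to 0.211). The nearest of the 4, Cygb, starts 10.3 Mb above the start of Ern1. The labels give the strain as C57BL/6 for both genotypes and no breeding record, so inherited differences between the WT and KO mice cannot be told apart from the loss of IRE1a in these libraries.

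Most differences in Treg were seen in Teff of the same genotypes. Of the 202 called genes 184 had the same direction in Teff (91.1%), against 63.2% of all tested genes. In Teff 934 genes were called (7.33%), 249 higher (1.95%) and 685 lower (5.38%), and 134 genes were called in both cell types, 132 in the same direction; they were 66.3% of the Treg calls and 14.3% of the Teff calls. Kcnf1 went from 2.01 and 5.04 in WT Teff to 101 and 119 in KO Teff, St6galnac2 from 129 and 105 to 5437 and 5333, Gdpd3 from 1392 and 1236 to 32.5 and 29.9 and Odc1 from 7006 and 6566 to 2309 and 1856. The genotype effect differed between the cell types for 3 genes (0.0235% of those tested), all with a more positive effect in Treg. Zswim9, a SWIM zinc finger gene, rose in Treg from 20.03 and 22.2 to 269 and 269 and was at 206 and 277 in WT Teff and 210.1 and 210.1 in KO Teff (difference of log2 changes 3.79, adjusted p = 0.00873). Only WT Treg stood low among the 4 groups. For Orc1 and Hdac9, whose log2 changes were -2.38 and -5.98 in Treg and -0.03 and 1.19 in Teff, the difference did not pass the test (adjusted p = 0.142 and 0.136), nor did it for Kcnf1 (0.165) or S1pr1 (0.103). With any 1 Treg library dropped, 0 or 1 gene was called for the difference, and none of these 3.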

How the data were processed

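Polyadenylated RNA was sequenced as 50-base single-end reads, per the labels' protocols, which name no strand-marking step and no molecular identifiers. Reads of overlapping or antisense genes and PCR copies cannot be told apart. Per the submitters' processing notes, reads went through Salmon 0.14.1 after Trim Galore 0.4.4, with DESeq2 1.28.1 under R 4.0.3 and build mm10. The authors deposited 1 signal column per library, a scaled read number that is not whole, so a count test was not used. The authors' deposited log2 fold changes and adjusted p-values were not used.

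The test was limma 3.58.1 (trend, robust; R 4.3.3) on log2(value + 1), with 1 coefficient per group over all 8 libraries, 4 residual degrees of freedom, Benjamini-Hochberg adjustment over 12742 genes. Groups came from the cell type and genotype labels. The design assumed counts only where the table held them. Alternatives were other scalings, filters, pseudocounts, a 2-group fit, a replicate block and leaving out each library. All 18438 identifiers were found in GENCODE M21 (GRCm38, also called mm10), 17918 with the same version. Shared sequence was the percentage of a gene's 50-base stretches, on either strand, found in another gene's transcripts. Where 20 symbols stood on more than 1 row, the more abundant row was used. The fit was tested on simulated data.

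Named genes were Ern1, Xbp1, Foxp3, Il2ra, Il2rb and Cd4, the 15 named risers and 15 named fallers of largest change that reached 5 CPM (taken on the sum of the deposited values) without overlap, the 10 most abundant called genes, up to 4 members per list by p, called genes listed at 0 in 1 genotype and genes whose effect differed from Teff. Unnamed genes, pseudogenes and receptor segments (7 higher, 12 lower) were left out of the largest. Called list members beyond 4, Ikzf2, Hspa5, Ccr7, C1qa and Lgals3bp were added after their values were seen. Some genes this rule names are not reported here. The genes, 37 lists and tests were chosen with earlier results of these data known. Tables and figures were made in Python 3.11.15 (matplotlib 3.10.9, pandas 2.3.3, numpy 2.4.6).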

Additional observations from a re-analysis of the deposited data

Results flagged for a closer look

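The genotype effect of 3 genes in Treg differed from that in Teff in the test of the difference itself (limma over all 8 libraries, adjusted over 12742 genes). For Zswim9 the log2 change in Treg exceeded that in Teff by 3.79 (SE 0.26, adjusted p = 0.00873); WT Treg had 20.03 and 22.2 and the other 6 libraries 206 to 277. For Art2a, an ADP-ribosyltransferase gene of T cells, the difference was 2.34 (SE 0.16, adjusted p = 0.00873). Art2a went from 386 and 400.2 to 290.2 and 267 in Treg, a change of -0.50 that did not pass the test there (adjusted p = 0.0951), and fell from 648 and 671 to 87.7 and 94.7 in Teff, a log2 change of -2.84. Its neighbour Art2b, picked after its values were seen, rose in Treg from 896 and 888 to 1876 and 1924 and was at 989.6 and 1048 and 1059 and 1260.3 in Teff. For Trav7d-6, a T cell receptor segment, the fitted difference was 6.00 (adjusted p = 0.0223); that value has no fold meaning, because both WT Treg libraries are listed at 0 and all of its 50-base stretches also occur in other genes.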

How the results depend on the processing

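The count of called genes in Treg was 202, and 32 of these calls held under all 18 alternatives. Another 9 held under the 15 or more that tested them, since a gene near 0 in 1 genotype can fail the filter without a library. It stayed within 1.5 times under the other scalings, pseudocounts and filters, between 171 (no trend, not robust) and 271 (quantile normalization). With only the 2 Treg groups fitted it was 230, 78 higher and 152 lower, a shift towards lower calls. Without single libraries it ranged from 43 to 207 in Treg and from 360 to 648 in Teff, where the count was 934. For the difference of effects it ranged from 0 to 3, beside 3. In Teff the count was 182 with only the 2 Teff groups fitted and 617 with no trend and no robust step. For the difference of effects it was 5 with no filter, 5 with library totals, 5 with upper-quartile scaling and 10 with no trend and no robust step. The cause of these shifts was not tested. Replicate numbers did not pair WT with KO libraries: deviations of same-numbered WT and KO libraries correlated at r = -0.123 in Treg and -0.0181 in Teff over 9218 genes. Whether Treg and Teff libraries of a genotype came from the same mice was not tested, and the fit treated them as independent. With a replicate block the count was 62 in Treg, 343 in Teff and 0 for the difference. Among the genes named above, the fit of only the 2 Treg groups lost the calls of Atp1b1, Slco1a6, Speg, Hdac9, Il17ra, Relb and Prf1. It also lost those of Rrm2, Ube2t, H2-T22, H2-T23, Tap1, H2-Ab1, H2-DMb1, Ifi213 and Sirpb1a. Calls of Prps1l1, Gm7142, Trav13-3 and Trav7d-6 were lost there as well.

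Of 666 list medians recomputed under alternatives, 607 moved by less than 1 SD, 59 by more, and 23 changed sign. Single uncalled genes were followed only where the rule or the text names them, and signs reversed for 8 of these. With quantile normalization Il2rb was at 0.024. Without single Treg libraries Cd3d ranged from -0.15 to 0.0081, Cd8a from -0.087 to 0.31, Cxcr2 from -0.81 to 0.062, Itga2b from -0.69 to 2.05, Klrb1c from -0.53 to 0.64, Lck from -0.00667 to 0.074 and Sdc1 from -0.84 to 0.10. Precision rests on 2 libraries per group. In simulated data of the Treg comparison 100 of 100 genes changed by 1 log2 unit and 61 of 100 changed by 0.5 were recovered. False calls numbered 9 among 12742 genes. Small changes can thus be missed. Larger measured changes also went uncalled, such as Runx3 (-1.01, SE 0.21), Spic (-1.20, SE 0.40) and Pax5 (5.06, SE 1.13), while 105 called genes exceeded 2-fold. Recovery was not tested separately for genes with such SEs or for weakly expressed genes. The recovered shares need not hold for them.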
